A study of Mus musculus with 11 samples.

Results

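The comparison set 7 arrays of mice held in a low-carbohydrate state, 3 after a fast and 4 on a ketogenic diet, against 4 arrays of fed mice, 11 of 11 arrays in all, and asked which genes differed from the fed arrays in the same direction in both states. The arrays were chosen by the dietary challenge that the labels give, and the value of the low-carbohydrate side is the mean of the 2 group means. All mice were adult Ribo-Tag mice in which Aldh1l1-Cre, active in astrocytes, turns on an epitope-tagged ribosomal protein, and mRNA on tagged ribosomes was purified from dissected hippocampus (translating ribosomal affinity purification, TRAP). Fasted mice were fasted for 18 h by the treatment protocol and the methods, while the sample label gives 24 h. Ketogenic mice ate a high-fat, low-carbohydrate diet for 4 weeks and fed mice ate normal chow for 4 weeks. The labels number the arrays of each diet as biological samples and do not say whether a sample was 1 animal or a pool, so the p-values measure the spread between these samples only. No array of unpurified tissue or of mice without the tag was used here.

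Both states lower the supply of glucose and raise fatty acids and ketone bodies in the blood, and the ketogenic diet does so without a lack of energy. Astrocytes take up glucose, store glycogen, clear glutamate and potassium and make much of the cholesterol that neurons use. Sterol synthesis is set by SREBP2, a transcription factor kept at the endoplasmic reticulum by INSIG proteins when sterols are plentiful and released to the nucleus when they are scarce, where it binds sterol regulatory elements together with NF-Y, which binds CCAAT boxes.

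No gene met the threshold when the 2 states were pooled. Of 20259 genes, 0 (0.0%) had an adjusted p under 0.05 in limma's moderated test, and the lowest adjusted p was 0.153, which 44 genes shared. Before adjustment 2189 genes had p under 0.05. Of the 2189, 1245 (6.15% of all genes) had a lower mean in the pooled states and 944 (4.66%) a higher mean. Both states pointed the same way for 2128 of these, 1194 lower and 934 higher, and opposite ways for 61. Both states were set against the same fed arrays, and a gene whose states point apart has a small pooled difference, so this count is set in part by the construction. Asking each state to reach p under 0.05 by itself left 276 genes lower (1.36%) and 163 higher (0.805%). With the larger of the 2 single-state p-values as the test, 0 genes passed and the lowest adjusted p was 1. In 196 genes (0.967%) all 7 arrays lay below all 4 fed arrays, and in 137 (0.676%) all 7 lay above. Taken alone, ketogenic against fed gave 179 genes with adjusted p under 0.05 (0.884%) and fasted against fed gave 0 (0.0%). The fasted and ketogenic arrays differed from each other in 57 genes (0.281%). The genes described here are therefore given as values with their intervals, and none of their pooled differences passed adjustment over all genes.

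Among the 11 arrays, 2 lay away from the others. Fed array 2 scored 47.3 on principal component 1, which held 27.2% of the variance, and fasted array 2 scored -36.6 on the second (14.9%), and limma's weights for them were 0.251 and 0.458, against 1.03 to 1.43 for the other 9. Without fed array 2, which both states share, 488 genes had p under 0.05 in each state in 1 direction. Of the 439 genes found with all arrays, 259 were among them. Without fed array 2 and fasted array 2 the count was 464, of which 197 were among the 439. The median log2 fold change over all genes was -0.0049 for the pooled states, -0.021 for fasted and 0.014 for ketogenic, and the median standard error of a pooled log2 fold change was 0.097.

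The gene of lowest pooled p was Aldh7a1, an aldehyde dehydrogenase of lysine breakdown. It had 6.32, 6.23 and 6.24 log2 on the fasted arrays and 6.23, 6.34, 6.32 and 6.10 on the ketogenic arrays, against 6.64, 6.87, 6.74 and 6.75 on the fed arrays. The 7 arrays lay below all 4 fed arrays, and the 2 states lay at the same level. The pooled log2 fold change was -0.49 (standard error 0.069, 95% interval -0.65 to -0.34, adjusted p = 0.153 from limma), a level 1.41-fold lower, with -0.48 for fasted and -0.50 for ketogenic. The difference between fasted and ketogenic was 0.019, with a 95% interval from -0.17 to 0.20. Against fed by itself, the ketogenic difference had an adjusted p of 0.0195 and the fasted difference one of 0.275 from limma.

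Ednrb, the endothelin B receptor that hippocampal astrocytes carry, had the most negative value of the 8 genes of lowest p on the lower side. Its levels were 9.57, 9.11 and 9.45 log2 on the fasted arrays and 8.79, 8.90, 9.11 and 8.79 on the ketogenic arrays, against 9.67, 10.2, 9.90 and 9.92 on the fed arrays. All 7 lay below the fed arrays, the ketogenic arrays mostly further than the fasted ones. The pooled log2 fold change was -0.79 (standard error 0.12, adjusted p = 0.153 from limma), -0.55 for fasted and -1.03 for ketogenic, and -0.69 without fed array 2. The fasted arrays were 0.48 above the ketogenic arrays (95% interval 0.16 to 0.80, adjusted p = 0.262).

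Slc14a1, the urea transporter UT-B, had 7.26, 7.05 and 7.37 log2 on the fasted arrays and 6.85, 7.03, 7.16 and 7.02 on the ketogenic arrays, against 7.56, 7.54, 7.77 and 7.85 on the fed arrays. Again no array of either state reached the fed arrays, and its pooled log2 fold change was -0.56 (-0.45 for fasted and -0.67 for ketogenic). Cyp4f14, a cytochrome P450 of the family that hydroxylates leukotrienes and fatty acids, had 6.16, 5.86 and 6.15 log2 on the fasted arrays and 5.44, 5.53, 5.63 and 5.56 on the ketogenic arrays, against 6.28, 6.23, 6.61 and 6.54 on the fed arrays. Here the ketogenic arrays formed a level of their own and the fasted arrays lay close under the fed arrays, with log2 fold changes of -0.36 for fasted and -0.88 for ketogenic (pooled -0.62). Gpam, the mitochondrial acyltransferase that starts glycerolipid synthesis, was the 1 gene of these 8 whose arrays overlapped, since fasted array 3 (7.29 log2) reached fed array 3 (7.28). Its log2 fold changes were -0.28 for fasted and -0.79 for ketogenic. All 8 genes were chosen by p in this same comparison, so a lack of overlap (0.967% of all genes) follows in part from the choice.

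Hsdl2, a dehydrogenase-like protein of peroxisomes, had a pooled log2 fold change of -0.38 (-0.28 for fasted and -0.47 for ketogenic) and Fgd6, an exchange factor for the small GTPase Cdc42, one of -0.49 (-0.33 and -0.65 in the same order). The pooled values of these 8 genes thus hold unequal parts of the 2 states. Aldh7a1 and Srebf2 had differences between fasted and ketogenic of 0.019 and -0.020, and in the other genes the ketogenic difference was the larger one. None of the 8 differences between fasted and ketogenic passed (adjusted p 0.081 to 0.965 from limma), where 0.281% of all genes did.

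**Figure D1:**
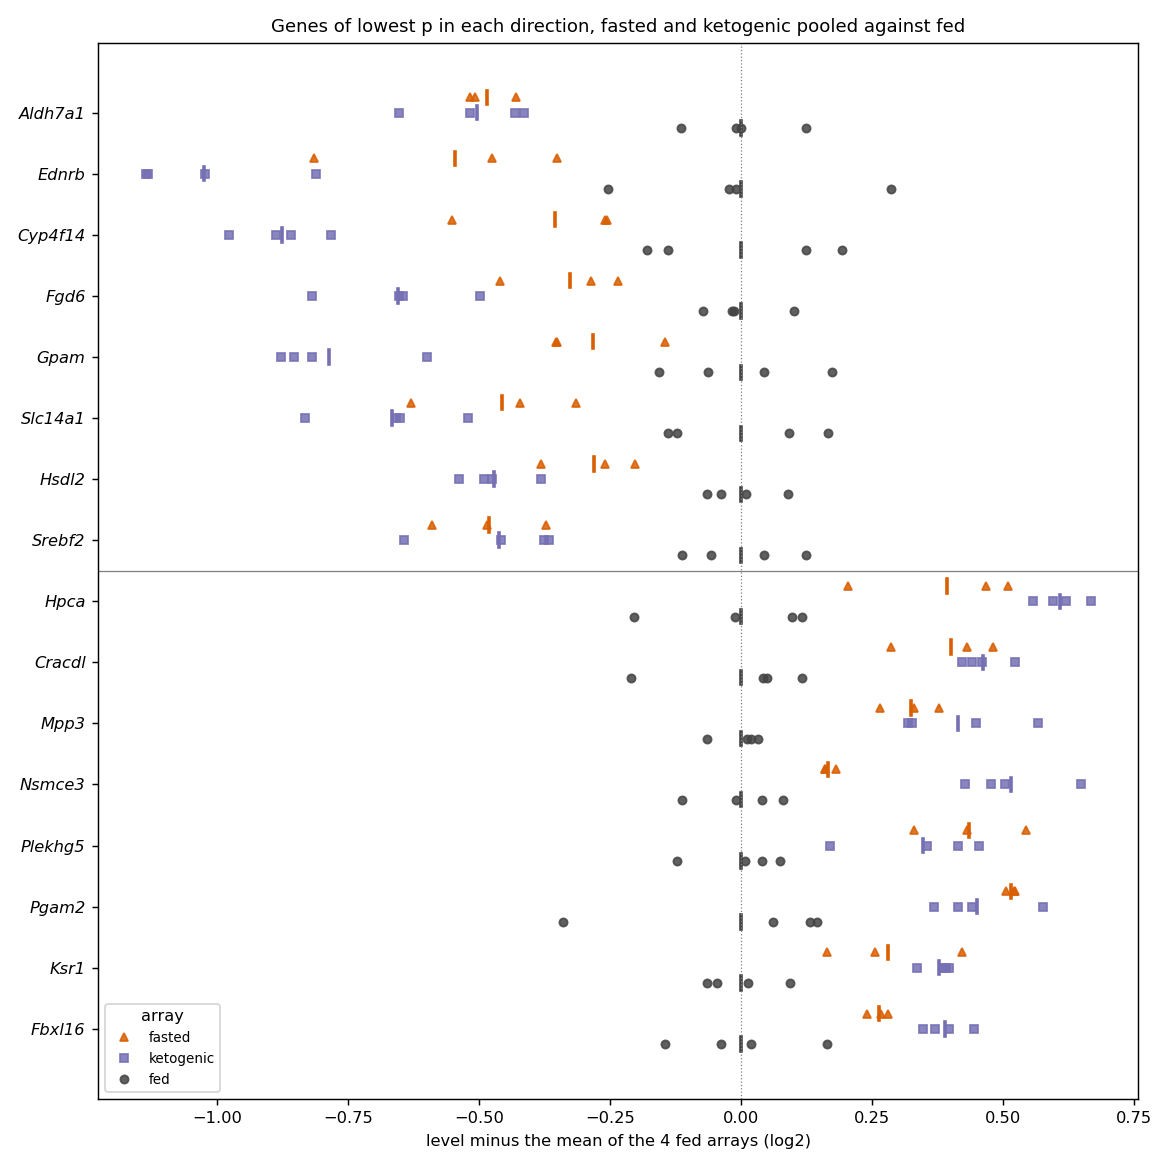
Levels of the 8 genes of lowest p on the lower side (top) and the 8 on the higher side (bottom), as log2 differences from the mean of the 4 fed arrays. Each point is 1 array (fasted triangles, ketogenic squares, fed circles) and each short bar a group mean. In every gene but Gpam the 7 fasted and ketogenic arrays clear the fed arrays. That follows in part from choosing the genes by p in this comparison.

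On the higher side, Hpca, which encodes the neuronal calcium sensor hippocalcin, had 8.11, 8.41 and 8.37 log2 on the fasted arrays and 8.52, 8.57, 8.50 and 8.46 on the ketogenic arrays, against 8.02, 7.70, 7.89 and 7.9997 on the fed arrays. All 7 lay above the fed arrays, fasted array 1 by the least, and the pooled log2 fold change was 0.50 (standard error 0.083, adjusted p = 0.153 from limma), 0.39 for fasted and 0.61 for ketogenic. Pgam2, the muscle-type phosphoglycerate mutase of glycolysis, had 7.34, 7.34 and 7.33 log2 on the fasted arrays and 7.19, 7.26, 7.40 and 7.24 on the ketogenic arrays, against 6.88, 6.95, 6.97 and 6.48 on the fed arrays. The 2 states were at 1 level here (0.52 for fasted and 0.45 for ketogenic, difference 0.066, 95% interval -0.18 to 0.32), and fed array 4 lay well under the other fed arrays. Without that array the pooled value was 0.37, against 0.48 with it.

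Mpp3, a scaffold protein of the MAGUK family, had 5.90, 6.01 and 5.97 log2 on the fasted arrays and 5.95, 6.20, 5.96 and 6.08 on the ketogenic arrays, against 5.67, 5.65, 5.65 and 5.57 on the fed arrays. The fed arrays lay close together below every array of both states (0.33 for fasted, 0.42 for ketogenic). Nsmce3, a subunit of the SMC5/6 complex, differed more on the ketogenic arrays (0.17 for fasted and 0.52 for ketogenic). The pooled log2 fold changes of the other 4 were 0.43 for Cracdl, 0.39 for Plekhg5, 0.33 for Ksr1, a scaffold of the MAP kinase pathway, and 0.33 for Fbxl16, an F-box protein. In all 8 genes the 7 arrays lay above the 4 fed arrays (0.676% of all genes). These genes were chosen by p in the same comparison, so the lack of overlap follows in part from the choice.

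Genes of cholesterol synthesis and other SREBP2 targets had the most negative pooled median of the 25 lists with all arrays and the brightest probe sets, at nearly the same value in both states. That order did not hold without fed array 2, where the median was -0.25 for the cholesterol list and -0.34 for the myelin list. With array weights these medians were -0.25 and -0.30, and without fed array 2 and fasted array 2 they were -0.20 and -0.29. In each of these settings the astrocyte marker list and the list of glutamate, GABA and potassium handling also had lower medians than the cholesterol list. Without fed array 2 and fasted array 2 the ependymal, choroid plexus and meningeal list did too (-0.27). The list of glutamate, GABA and potassium handling was lower than the cholesterol list without fasted array 2 (-0.251, against -0.244). It was also lower with the median over probe sets (-0.281, against -0.242) and with the replicate block (-0.295, against -0.283). The astrocyte markers were lower than the cholesterol list in both of these settings (-0.279 and -0.285). With the median over probe sets the myelin list was lower as well (-0.266). Of 25 cholesterol genes listed, 19 were measured, and 12 of them had p under 0.05 on the lower side and 0 on the higher side, where 6.15% and 4.66% of all genes had. The median log2 fold change was -0.30 for the pooled states, -0.29 for fasted and -0.27 for ketogenic, beside -0.0049, -0.021 and 0.014 over all genes. In 5 genes (Mvd, Idi1, Cyp51, Msmo1 and Srebf2) the 7 arrays lay below all fed arrays (0.967% of all genes), and 9 genes had p under 0.05 on the lower side in each state (1.36% of all genes). Srebf2 is counted in both by its brightest probe set, and its other sets gave pooled values from -0.40 to -0.037. No gene of the list had an adjusted p under 0.05 between fasted and ketogenic, where 0.281% of all genes had. That count by itself does not show the states to be alike.

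The promoters of 4 of these genes are shown because the list had similar medians in both states with all arrays. The 4 are not the genes of lowest p. Mvd, Lss and Msmo1 had lower p than Hmgcs1 and are not shown. Hmgcs1 was the only gene searched whose promoter held a match to the sterol element. The letters of the promoters can be searched for the motifs of SREBP2 and NF-Y. They run from 250 bases before to 50 bases after the start of the gene, from RefSeq on build GRCm38.p6, with matches to the sterol regulatory element (TCACNCCAC, or GTGGNGTGA on the other strand) and to the CCAAT box (CCAAT, or ATTGG on the other strand) in capitals.
Srebf2, chr15:82147019-82147318, + strand: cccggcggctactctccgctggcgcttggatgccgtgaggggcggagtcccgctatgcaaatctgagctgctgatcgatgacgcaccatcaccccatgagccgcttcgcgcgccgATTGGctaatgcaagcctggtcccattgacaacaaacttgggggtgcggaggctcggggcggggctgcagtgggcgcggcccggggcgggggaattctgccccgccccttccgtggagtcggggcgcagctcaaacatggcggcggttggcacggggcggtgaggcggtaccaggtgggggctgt
Cyp51, chr5:4104648-4104947, - strand: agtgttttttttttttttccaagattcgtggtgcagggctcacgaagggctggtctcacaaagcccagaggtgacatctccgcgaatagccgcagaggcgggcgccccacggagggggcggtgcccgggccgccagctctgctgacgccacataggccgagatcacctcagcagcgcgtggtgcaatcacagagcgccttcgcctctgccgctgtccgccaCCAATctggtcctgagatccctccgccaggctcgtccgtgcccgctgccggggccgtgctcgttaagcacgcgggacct
Idi1, chr13:8885356-8885655, + strand: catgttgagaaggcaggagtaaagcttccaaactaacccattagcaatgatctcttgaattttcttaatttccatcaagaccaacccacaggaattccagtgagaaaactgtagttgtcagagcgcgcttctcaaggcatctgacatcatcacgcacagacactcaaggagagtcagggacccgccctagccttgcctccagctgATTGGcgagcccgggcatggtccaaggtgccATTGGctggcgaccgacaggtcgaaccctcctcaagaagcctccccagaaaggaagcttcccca
Hmgcs1, chr13:119690101-119690400, + strand: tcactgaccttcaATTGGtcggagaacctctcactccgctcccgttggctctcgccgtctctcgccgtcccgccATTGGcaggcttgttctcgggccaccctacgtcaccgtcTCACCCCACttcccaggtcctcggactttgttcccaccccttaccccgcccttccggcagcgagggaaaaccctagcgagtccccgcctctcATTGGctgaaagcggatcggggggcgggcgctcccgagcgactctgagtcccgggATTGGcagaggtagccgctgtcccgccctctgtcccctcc
Of 15 list genes with a promoter that was searched, 1, Hmgcs1, held a match to the sterol element and all 15 a CCAAT box. The 2 motifs do not overlap each other. Of 27025 genes in the same table, 1.44% held the first and 41.1% the second in at least 1 promoter. A match describes the letters only and was not tested as a binding site. The search allowed no mismatch, so a promoter without a match may still hold a variant of the element.

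Srebf2 itself had 10.4, 10.2 and 10.3 log2 on the fasted arrays and 10.4, 10.1, 10.4 and 10.3 on the ketogenic arrays, against 10.6, 10.9, 10.8 and 10.7 on the fed arrays. Every array of both states lay below every fed array, and the pooled log2 fold change was -0.47 (standard error 0.078, adjusted p = 0.153 from limma), -0.48 for fasted and -0.46 for ketogenic, with a difference between the states of -0.020 (95% interval -0.23 to 0.19). The value depends on the probe set. The 2 bright sets of the gene gave -0.47 and -0.40, while the 3 dimmer sets gave -0.12, -0.040 and -0.037, and a fit on each array's median level over the 5 sets gave -0.037, the value of the set of middle brightness. Which of these sets follow the coding transcript, and whether the probe sets of this list lie at the loci of their genes, was not tested.

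Cyp51, the lanosterol demethylase whose promoter is shown above, had 6.99, 6.74 and 7.05 log2 on the fasted arrays and 6.83, 7.07, 6.90 and 6.76 on the ketogenic arrays, against 7.25, 7.60, 7.33 and 7.48 on the fed arrays. Both states lay under the fed arrays by a like amount (-0.49 for fasted and -0.53 for ketogenic, pooled -0.51, standard error 0.094, adjusted p = 0.153 from limma), and the pooled value was -0.44 without fed array 2. Mvd, which makes isopentenyl diphosphate, had 6.88, 6.48 and 6.80 log2 on the fasted arrays and 7.03, 6.85, 6.63 and 6.76 on the ketogenic arrays, against 7.08, 7.20, 7.04 and 7.26 on the fed arrays. These groups also did not overlap, although ketogenic array 1 (7.03) came close to fed array 3 (7.04), and the pooled value was -0.38.

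Idi1, the isomerase that follows Mvd, had the most negative pooled log2 fold change of the list, -0.74 (95% interval -1.17 to -0.31), with -0.89 for fasted and -0.58 for ketogenic. Further along the pathway, Sqle, the squalene epoxidase, had -0.31, Lss, the lanosterol synthase, -0.27, Msmo1, the sterol methyl oxidase, -0.36, and Sc5d, the lathosterol oxidase, -0.31. Insig1, which holds SREBP2 back, had -0.32, and Stard4, a sterol carrier, -0.47. The synthase Hmgcs1, the 1 gene with a sterol element match, had -0.20 (95% interval -0.54 to 0.14). Genes near 0 were Nsdhl (-0.077), Dhcr7 (-0.075), Mvk (-0.063), Ebp (-0.0035) and Hsd17b7 (0.051), and Pmvk stood at 0.15, so the lower values were found in part of the pathway and not in every step.

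The mean level of the 19 genes was 6.93, 6.66 and 6.97 log2 on the fasted arrays and 6.89, 7.002, 6.96 and 6.89 on the ketogenic arrays, against 7.06, 7.18, 7.12 and 7.23 on the fed arrays. The groups did not overlap, and fasted array 2 was the lowest of all. Without fasted array 2 the medians were -0.16 for fasted and -0.27 for ketogenic (pooled -0.24). Without fed array 2 they were -0.31 for fasted and -0.17 for ketogenic (pooled -0.25), with 9 genes at p under 0.05 on the lower side. Without both arrays they were -0.19 and -0.17. The nearness of the 2 states was thus lost when 1 of these 2 arrays was left out. A trait of the shared fed arrays and a response to either state cannot be told apart for any gene of this list.

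**Figure D2:**
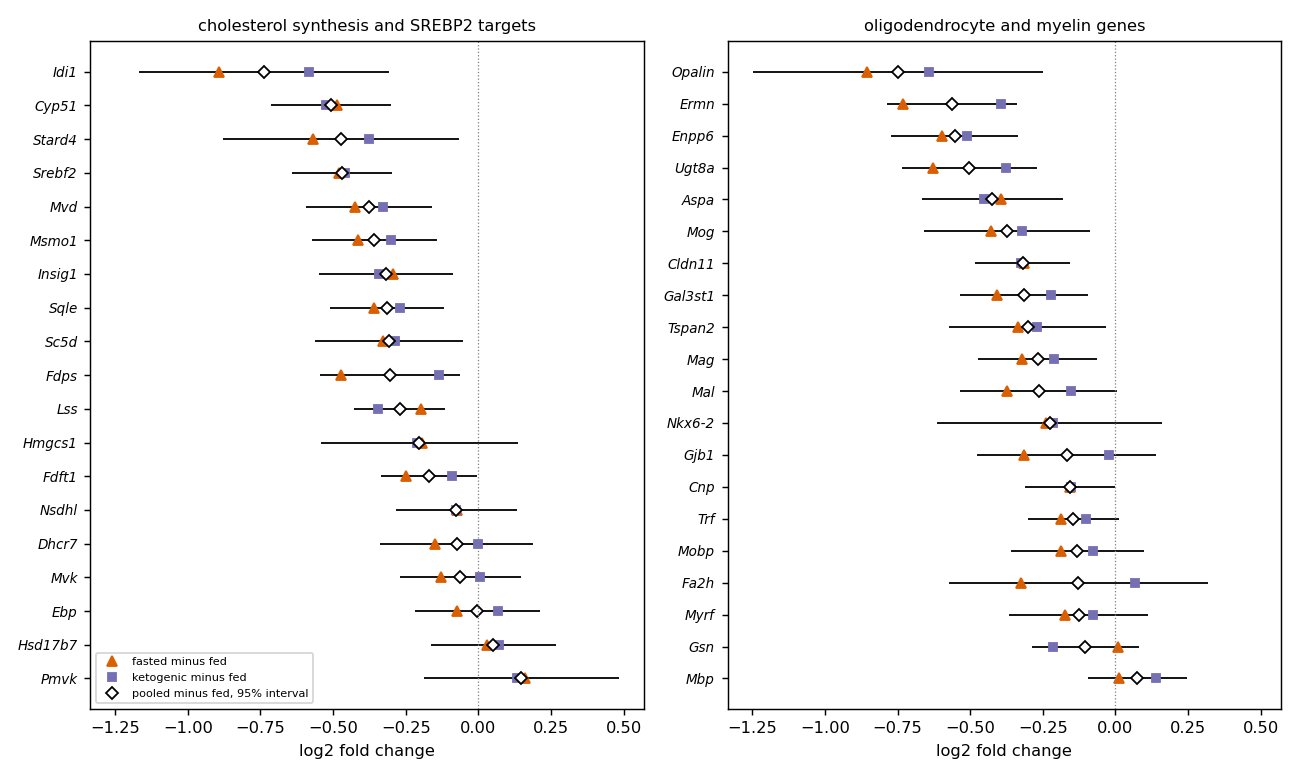
Log2 fold changes against fed of the 19 measured cholesterol genes (left) and the 20 measured oligodendrocyte and myelin genes (right). Diamonds with bars are the pooled states with the 95% interval, triangles fasted and squares ketogenic; in most genes of both panels the 2 states lie on the lower side, close to each other.

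Myelin genes, which oligodendrocytes make and which the astrocyte pull-down was not built to hold, also had lower means in both states. Of 20 measured genes 11 had p under 0.05 on the lower side and 0 on the higher side (6.15% and 4.66% of all genes), 7 were lower with p under 0.05 in each state (1.36% of all genes), and the median was -0.27 (-0.32 for fasted and -0.21 for ketogenic). Enpp6, a choline phosphodiesterase of newly formed oligodendrocytes, had 5.23, 4.92 and 4.96 log2 on the fasted arrays and 5.15, 4.89, 5.35 and 5.10 on the ketogenic arrays, against 5.51, 5.80, 5.60 and 5.63 on the fed arrays. Its groups did not overlap (pooled -0.55, standard error 0.099, adjusted p = 0.153 from limma).

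Ermn, a cytoskeletal protein of myelin, had 8.60, 8.35 and 8.67 log2 on the fasted arrays and 8.72, 8.90, 8.94 and 8.94 on the ketogenic arrays, against 9.12, 9.57, 9.27 and 9.12 on the fed arrays, the fasted arrays lowest. Its log2 fold change was -0.56 for the pooled states and -0.46 without fed array 2. The tight junction protein Cldn11 had -0.32, the sphingolipid enzyme Ugt8a -0.50, the myelin protein Opalin -0.75 and the aspartoacylase Aspa -0.42. The abundant myelin transcript Mbp did not share this, with 0.075 (95% interval -0.094 to 0.24), nor did Mobp (-0.13) or Fa2h (-0.13) reach p under 0.05. Mean levels of the list overlapped, at 6.74 to 7.11 log2 on the fasted arrays and 6.91 to 7.18 on the ketogenic arrays, against 7.10 to 7.37 on the fed arrays. Of 12 precursor markers, 5 had p under 0.05 on the lower side (6.15% of all genes), among them Gpr17 (-0.39) and Sox10 (-0.40). The list median was -0.17. The tag was aimed at astrocytes, and whether any oligodendrocytes carried it was not tested. How much untagged RNA a pull-down held, how many cells of a type there were and RNA per cell cannot be told apart.

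Neuron markers were the list with the highest pooled median. Of 25 measured, 10 had p under 0.05 on the higher side and 0 on the lower side (4.66% and 6.15% of all genes). The median was 0.15 (0.13 for fasted and 0.16 for ketogenic). Slc12a5, the neuronal chloride exporter KCC2, had 8.44, 8.48 and 8.55 log2 on the fasted arrays and 8.55, 8.66, 8.44 and 8.55 on the ketogenic arrays, against 8.43, 8.25, 8.29 and 8.33 on the fed arrays, so that all 7 lay above the fed arrays by a small step (0.20). Slc17a7, which loads glutamate into synaptic vesicles, had 0.19, the synapsin Syn1 0.27 and the splicing factor Celf4 0.25, while Gad2 (-0.17) and Tubb3 (-0.15) had negative values. The mean level of the list was 7.81 to 7.95 log2 on the fasted arrays and 7.89 to 7.94 on the ketogenic arrays, against 7.70 to 7.79 on the fed arrays, with no overlap. Without fed array 2 the fasted median was 0.072 and 6 genes had p under 0.05. These neuron and myelin values stand beside the cholesterol genes and beside Hpca, and their part in those differences was not tested.

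Astrocyte markers, the class that the pull-down was built to hold, had lower pooled means, with the difference lying in the ketogenic arrays. The pooled median of 24 measured markers was -0.28, with 18 at p under 0.05 on the lower side (6.15% of all genes). However, the median was -0.070 for fasted and -0.43 for ketogenic. Only Aqp4, the water channel of endfeet, had p under 0.05 in each state (1.36% of all genes on the lower side). Its values were -0.37 for fasted and -0.60 for ketogenic. Aldh1l1, whose promoter drives the Cre, had 6.88, 6.86 and 6.94 log2 on the fasted arrays and 6.05, 6.30, 6.42 and 6.15 on the ketogenic arrays, against 6.81, 7.12, 6.93 and 6.98 on the fed arrays. The fasted arrays lay among the fed arrays and the ketogenic arrays below both, with a difference between fasted and ketogenic of 0.67 (adjusted p = 0.031 from limma).

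All 24 markers lay above the 95th percentile of odorant receptor genes (3.96 log2), which stand for genes without expression. The list's mean level ran from 7.17 to 7.40 log2 on the fasted arrays and 6.81 to 7.06 on the ketogenic arrays, against 7.34 to 7.42 on the fed arrays. Of the 16 measured genes of glutamate, GABA and potassium handling, 12 had p under 0.05 on the lower side (6.15% of all genes). The list showed the same split (median -0.10 for fasted and -0.44 for ketogenic). Slc7a11, the cystine-glutamate exchanger, was lower in both, at 6.41, 6.31 and 6.31 log2 on the fasted arrays and 5.92, 6.09, 6.25 and 5.92 on the ketogenic arrays, against 6.53, 6.93, 6.97 and 6.66 on the fed arrays (pooled -0.58, -0.43 for fasted and -0.73 for ketogenic, adjusted p = 0.153 from limma). The part of the astrocyte marker level in the ketogenic values of Ednrb, Slc14a1, Gpam and Cyp4f14 was not tested.

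**Figure D3:**
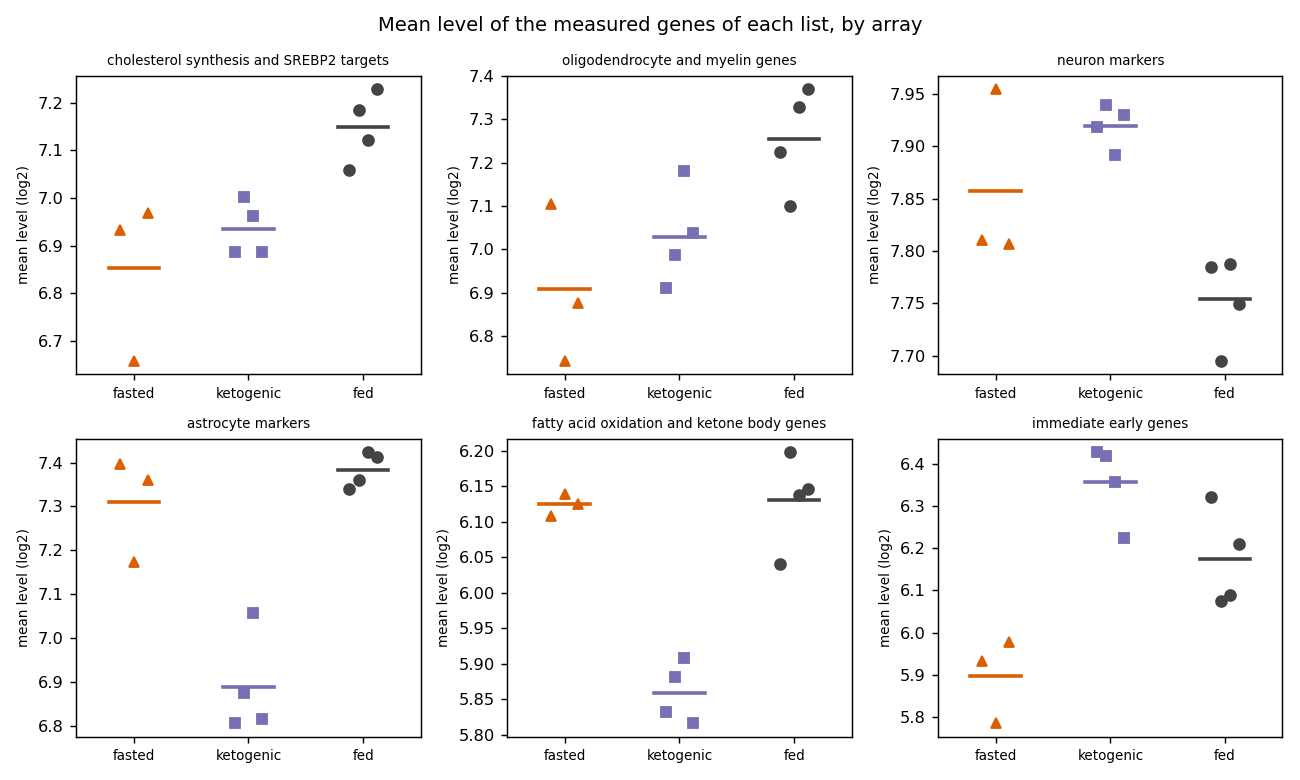
Mean log2 level of the measured genes of 6 lists on each array, with bars at the group means; each axis has its own range. Cholesterol genes lie lower and neuron markers higher in both states than on the fed arrays, while astrocyte markers and fatty acid oxidation genes lie lower on the ketogenic arrays and immediate early genes part the 2 states.

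Enzymes that burn fatty acids, the fuel that both states supply, had lower pooled means where p was under 0.05, and the ketogenic arrays again held the difference. The list of fatty acid oxidation and ketone body genes had 22 measured members. Of these, 7 had p under 0.05 on the lower side and 0 on the higher side (6.15% and 4.66% of all genes). In each state 0 had p under 0.05 (1.36% of all genes on the lower side and 0.805% on the higher side). The medians were -0.13 pooled, 0.0030 for fasted and -0.21 for ketogenic. Decr1, the dienoyl-CoA reductase for unsaturated fatty acids, had 7.004, 6.98 and 7.12 log2 on the fasted arrays and 6.50, 6.59, 6.58 and 6.55 on the ketogenic arrays, against 7.01, 6.996, 7.09 and 7.22 on the fed arrays, and the 2 states differed by 0.48 (adjusted p = 0.035 from limma). Cpt1a, the entry step of mitochondrial oxidation, had 0.10 for fasted and -0.52 for ketogenic. The ketone enzymes Oxct1, Bdh1 and Acat1 had pooled values of -0.084, -0.031 and 0.0094, none with p under 0.05. Fatty acid synthesis had a median of -0.19 (-0.059 for fasted and -0.27 for ketogenic). Of 17 genes, 6 had p under 0.05 on the lower side (6.15% of all genes). The regulator Srebf1 was among them (-0.032 for fasted and -0.42 for ketogenic). The brightest probe set of Srebf2 had -0.48 and -0.46 in the same order, while its set of middle brightness had -0.059 and -0.014.

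Immediate early genes, which neuronal activity induces, had medians of opposite sign in the 2 states. The median over 26 genes was -0.27 for fasted and 0.22 for ketogenic, which left -0.065 for the pooled states. Of these genes, 8 were lower on fasted than on ketogenic arrays with adjusted p under 0.05 from limma. Of all genes, 0.281% differed in either direction. Egr2 had 5.38, 5.06 and 5.71 log2 on the fasted arrays and 6.89, 6.61, 6.52 and 6.40 on the ketogenic arrays, against 6.69, 6.10, 6.56 and 6.41 on the fed arrays, the fasted arrays lying below all others. Of the 26 genes, 6 had lower means and 4 had higher means in both states, and in Jun all 7 arrays lay above the fed arrays (pooled 0.22).

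Etnppl, the ethanolamine phosphate phospholyase that the study followed up, pointed opposite ways in the 2 states and had the largest difference between them of the named genes. It had 7.06, 7.01 and 7.42 log2 on the fasted arrays and 5.02, 4.69, 4.75 and 4.87 on the ketogenic arrays, against 6.06, 6.02, 6.84 and 6.70 on the fed arrays. The fasted arrays lay above and the ketogenic arrays below all fed arrays. The log2 fold change was 0.76 for fasted, -1.57 for ketogenic and -0.41 for the pooled states (adjusted p = 0.418 from limma), and the states differed by 2.33 (95% interval 1.89 to 2.78, adjusted p = 0.000813). Nqo1, the quinone reductase (0.29 for fasted and -0.72 for ketogenic), and Pygm, the glycogen phosphorylase (0.12 and -0.67 in the same order), also had values of opposite sign. The Nqo1 values come from the brightest of 3 probe sets, and the dimmest set gave 0.77 for fasted and 0.20 for ketogenic (pooled 0.49, against -0.22 for the brightest).

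**Figure D4:**
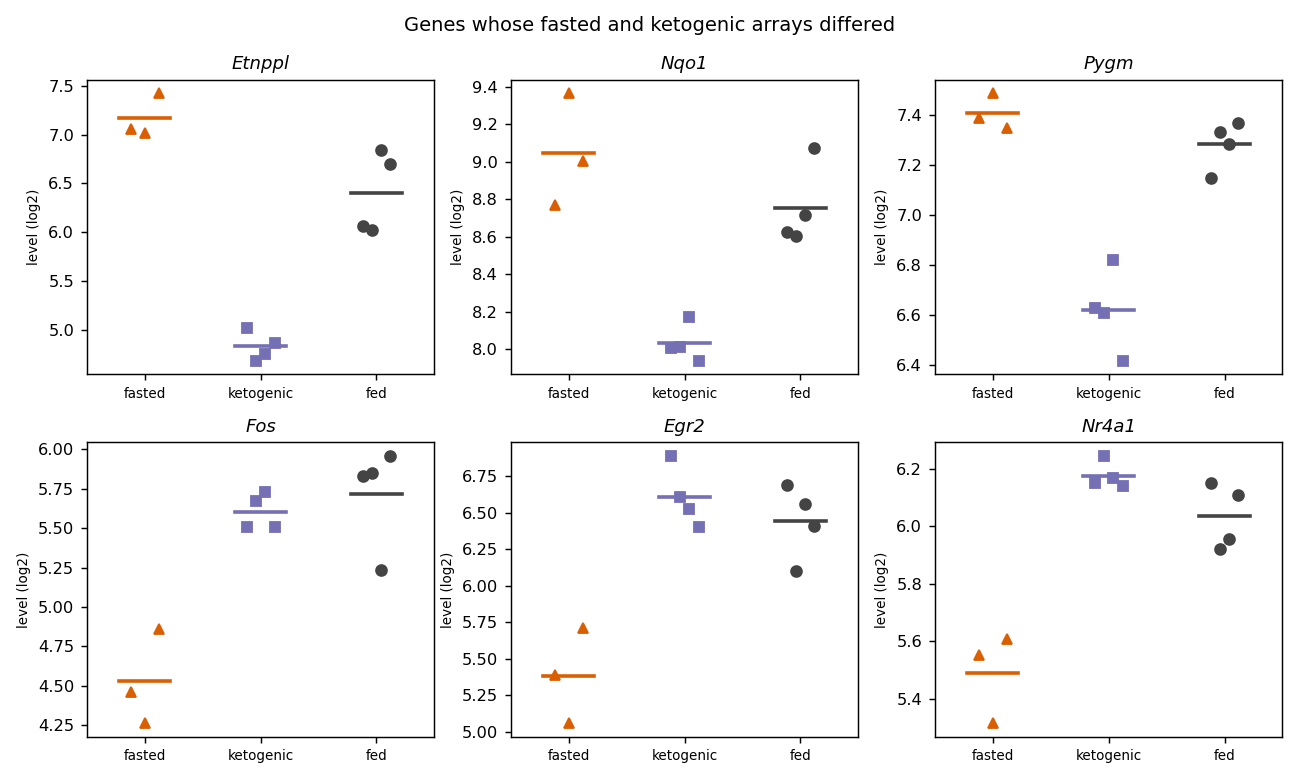
Log2 levels on each array of 6 genes whose fasted and ketogenic arrays differed, with bars at the group means. Etnppl has its fasted arrays above and its ketogenic arrays below all fed arrays, and Fos, Egr2 and Nr4a1 have their fasted arrays below all others.

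Targets of the glucocorticoid receptor, which corticosterone activates, had a median of 0.047 over 27 genes, with 8 at p under 0.05 on the higher side (4.66% of all genes) and 1 on the lower side (6.15%). The median was 0.074 for fasted and 0.011 for ketogenic. Of the 8, Sult1a1, a sulfotransferase (0.86 for fasted and -0.42 for ketogenic), Mfsd2a, a lysolipid transporter (0.60 and -0.27 in the same order), and Hif3a, a hypoxia-inducible factor subunit (0.51 and -0.0029), had higher means on the fasted arrays alone. In the list, 3 genes differed between fasted and ketogenic with adjusted p under 0.05 from limma (0.281% of all genes). Among the others of the 8, Cdkn1a, an inhibitor of the cell cycle (0.34), and the repressors Bcl6 (0.22) and Zbtb16 (0.22) had p under 0.05 in each state. On the higher side 0.805% of all genes did. Cdkn1a had 5.37, 5.33 and 5.13 log2 on the fasted arrays and 5.23, 5.33, 5.38 and 4.92 on the ketogenic arrays, against 5.11, 4.91, 4.74 and 4.87 on the fed arrays, and ketogenic array 4 overlapped the fed arrays. Fkbp5, a chaperone of the receptor, had 0.21 for fasted and 0.16 for ketogenic.

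Among the other lists, the ependymal, choroid plexus and meningeal list held the pooled value of greatest size among the named genes. Ccdc153, a gene of ciliated ependymal cells, had 8.40, 7.25 and 7.69 log2 on the fasted arrays and 8.02, 7.81, 8.19 and 7.80 on the ketogenic arrays, against 8.83, 8.92, 8.74 and 9.10 on the fed arrays. The fasted arrays were spread over more than 1 log2 unit, and all 7 lay below the fed arrays (pooled -1.03, standard error 0.18, adjusted p = 0.153 from limma). A dimmer probe set of the gene gave -0.41. Without fasted array 1 its value was -1.19 with an adjusted p of 0.0386, the 1 call made when single arrays were left out. Tmem212, of the same cells, had -0.59 for fasted and -0.57 for ketogenic, while Foxj1, which drives the ciliated fate, had -0.11 for the pooled states and the choroid plexus marker Ttr had 0.20, neither with p under 0.05. The median of that list was -0.11 (0.073 for fasted and -0.30 for ketogenic). Its mean level was 6.30 log2 on fasted array 2, against 5.26 and 5.15 on the other fasted arrays, and without fasted array 2 the median was -0.24 for the pooled states and -0.20 for fasted.

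Rbm3, the cold-inducible RNA-binding protein, had 11.0, 11.3 and 11.1 log2 on the fasted arrays and 10.5, 10.8, 10.5 and 11.0 on the ketogenic arrays, against 10.1, 10.1, 10.6 and 10.5 on the fed arrays. The fasted arrays lay above all fed arrays and the ketogenic arrays overlapped them (pooled 0.59, 0.81 for fasted and 0.37 for ketogenic). Its 8 probe sets ran from -0.0062 to 0.77. Endothelial and mural markers had a median of -0.068 (0.0068 without fed array 2), with 2 of 21 genes at p under 0.05. Microglia markers had one of 0.019 (-0.030 without fasted array 2), with 1 of 17. Both counts were on the lower side, where 6.15% of all genes had p under 0.05. The lists of PPAR and fasting response, glucose and glycogen, the tricarboxylic acid cycle, insulin and FoxO, ATF4, the clock, cold and heat shock, thyroid hormone, reactive astrocytes, phospholipids, NRF2 and autophagy had pooled medians between -0.073 and 0.066. In each, 0 to 6 genes had p under 0.05 on the lower side and 0 to 3 on the higher side (6.15% and 4.66% of all genes). The lower side held 6 of 29 glucose, 6 of 28 phospholipid, 4 of 18 PPAR and 4 of 25 reactive astrocyte genes. The higher side held 3 of 18 clock genes and 2 of 15 thyroid hormone genes.

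**Figure D5:**
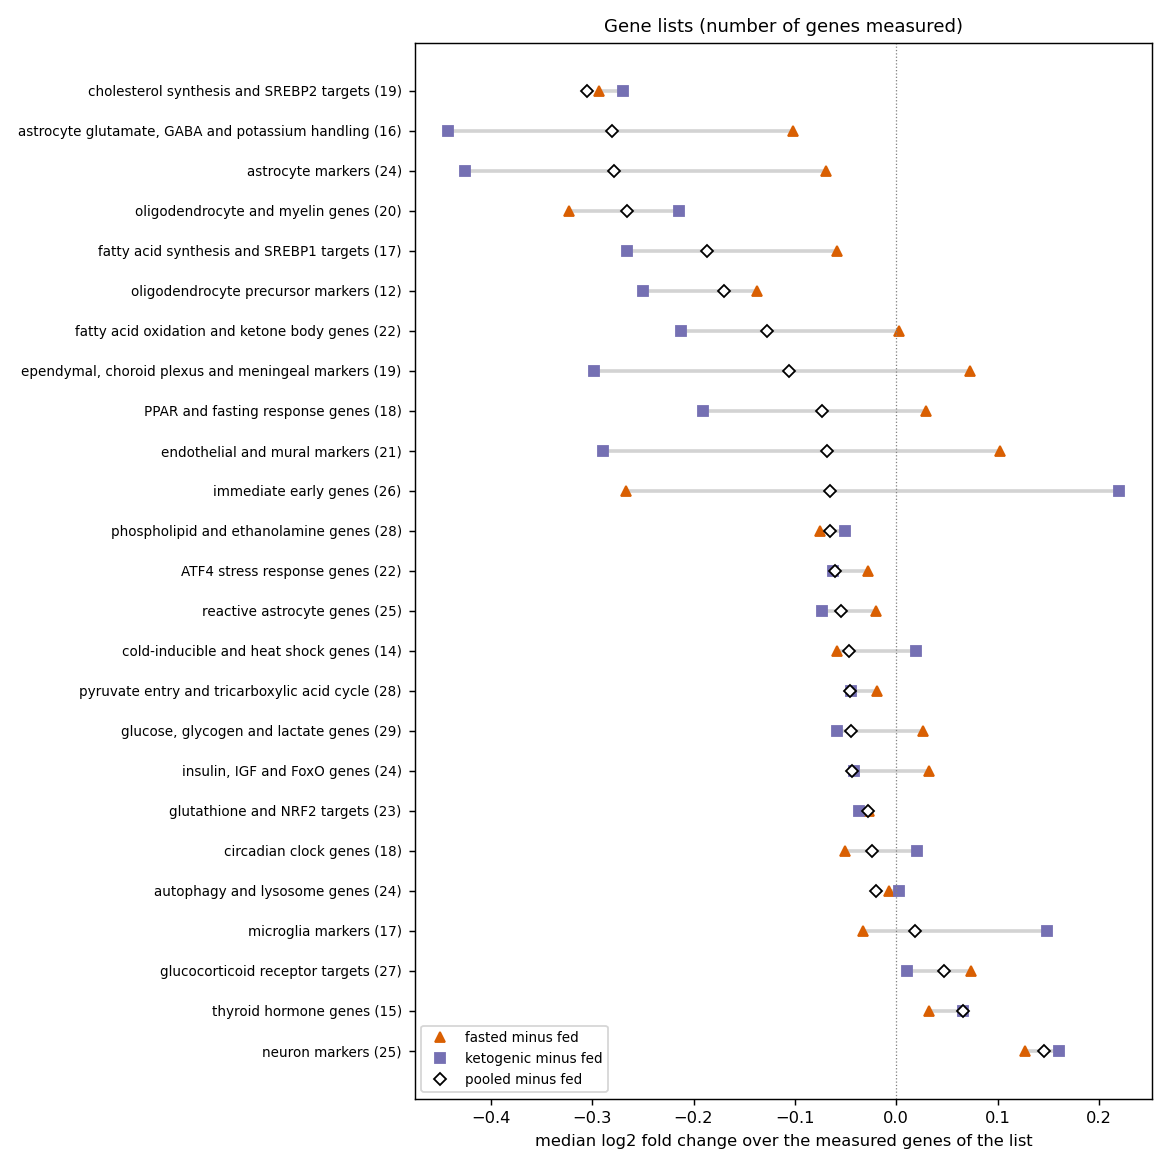
Median log2 fold change against fed of the measured genes of each of 25 lists, for fasted (triangles), ketogenic (squares) and the pooled states (diamonds), with grey lines joining the 2 states. With all arrays, the cholesterol list has its 2 states almost on top of each other near -0.3. The astrocyte lists have wide lines, and immediate early genes lie on both sides of 0.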

How the data were processed

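Ribosome-bound mRNA of hippocampal astrocytes from 3 fasted, 4 ketogenic and 4 fed samples was amplified with the NuGEN Pico WTA v2 kit, biotin-labelled and run on mouse exon arrays from Affymetrix. The authors deposited log2 expression values made with RMA in Partek, which corrects background, quantile-normalizes the arrays and summarises each probe set. The submitters' processing notes name the build mm9. The log base is not given in the sources used here and was read as log2, the base of RMA, from values of 0.856 to 13.6. Quantile normalization gives all arrays 1 distribution, so a shift of most genes in 1 direction would be lost.

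Of 115830 probe sets 25539 had 1 gene symbol, 2300 several and 87991 none in the platform annotation. Sets with 1 symbol were used, and each gene was taken from its brightest set, by the mean of all 11 arrays (20259 genes). No filter was applied, and 13218 genes lay above the 95th percentile of the 862 odorant receptor genes (3.96 log2). Groups were fitted together in limma 3.58.1 (R 4.3.3), the contrast being the mean of the fasted and ketogenic means minus the fed mean, with Benjamini-Hochberg adjustment over all genes at 0.05. The same fit gave each state against fed and fasted minus ketogenic. Intervals are at 95%. The fit was tested on simulated data. Named genes were, in each direction, the 12 called genes of largest change, filled to 8 with the genes of lowest p where fewer passed, up to 4 of lowest p from each of 25 lists, and Etnppl; other list members are given with their list values. The comparison and the lists, written from textbook knowledge, were chosen with earlier results of these data known. The labels do not say whether equal replicate numbers mark paired samples, and the numbers were not taken as pairs. Scan dates are not given in the sources used here. Precision is limited by the number of arrays. Alternatives were each array left out, array weights, centring, the median over probe sets, a filter on dim genes, the 7 arrays as 1 group, a t-test, a trended prior, a block and all probe sets.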

Additional observations from a re-analysis of the deposited data

Results flagged for a closer look

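In 13 named genes the fasted and ketogenic arrays differed with an adjusted p under 0.05 in limma, so that the pooled value averages unlike states. The difference (fasted minus ketogenic, log2) was 2.33 for Etnppl, 1.02 for Nqo1, 0.98 for Fmod, 0.79 for Pygm, 0.76 for Mlc1, 0.67 for Aldh1l1, 0.62 for Cpt1a, 0.59 for Slc1a3, 0.53 for Idh2 and 0.48 for Decr1. It was -1.22 for Egr2, -1.08 for Fos and -0.69 for Nr4a1.

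In 6 genes 1 array of a group of 4 lay far from the other 3 by Dixon's criterion, which chance meets in about 1 of 20 groups. Ketogenic array 3 was the lowest of its group for Ksr1 (6.90 log2) and the highest for Slc4a4 (6.54), and ketogenic array 1 was the lowest for Ermn (8.72). Fed array 2 was the highest of the fed arrays for Ugp2 (6.21) and the lowest for Crym (7.73) and Ulk1 (6.24).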

How the results depend on the processing

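The pooled comparison called 0 genes in every alternative run but one. Over the fits that left out 1 array, the count, and the count with both states the same way, ran from 0 to 1, the 1 being Ccdc153 without fasted array 1. Array weights gave a lowest adjusted p of 0.0809, centring 0.130 and the filter on dim genes 0.0998. The methods' t-test gave 2008 genes with p under 0.05 and 0 after Benjamini-Hochberg. Genes at an unadjusted p under 0.05 numbered 1758 to 2348 in the alternatives on genes, and 7985 when all 115830 probe sets were tested, more features by construction. Of the values of named genes 2284 kept direction and side of the threshold, and 1, Ccdc153, crossed it. No named gene passed in the main fit, so keeping the side of the threshold says little about how stable the sizes were. Srebf2 counted as kept although its pooled value went from -0.47 to -0.037 with the median over probe sets. Of the list medians 444 moved by less than the spread between arrays and 6 by more, among them the glucose list (0.011 without fed array 2) and the reactive astrocyte list (-0.12 with the filter on dim genes); the cause was not tested.

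Arrays of the same number had residual correlations of -0.118 to 0.183, so the numbers were not taken as pairs. With the number as a replicate block 0 genes were called, 2137 had an unadjusted p under 0.05 and the lowest adjusted p was 0.277.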
